A study of Mus musculus with 22 samples.

Results

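Epithelial keratins and junction genes were followed here: 10 genes of the 78298 in the count tables, 46244 of which had a count in any library. They were chosen as a named set, with no measured value in the rule: the simple-epithelium keratins Krt7, Krt8, Krt18 and Krt19, the adhesion genes Epcam and Cdh1, the tight junction genes Cldn4, Cldn7 and Ocln, and the membrane mucin Muc1. The study set natural killer (NK) cells from the spleens of female and male mice against Panc02, a mouse pancreatic cancer cell line, and sequenced polyA RNA from 22 libraries. Fresh, untreated NK cells (samples 1 and 2 from female donors, 4 and 5 from male donors), the same sample numbers after 24 h with IL-2 alone (monoculture) and after 24 h with IL-2 and Panc02 (co-culture) gave 12 libraries, with 2 per sex and condition. Panc02 cultured alone gave 2 libraries, and Panc02 allograft tumors gave 8, from female hosts (1 to 4) and male hosts (5 to 8). The labels used here gave no strain, age or graft site. They did not say whether the 2 cultured libraries were separate cultures, so that p-values against them measure the spread between these libraries, which may be technical.

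Keratins are intermediate filament proteins that assemble only as pairs of a type I and a type II chain. In simple epithelia such as the pancreatic duct, Krt8 (type II) and Krt18 (type I) form the basic pair, and Krt7 (type II) and Krt19 (type I) are added in ducts. Cdh1 encodes E-cadherin, the adhesion receptor of adherens junctions. Epcam encodes a surface adhesion protein that stabilises claudins. Claudins, here Cldn4 and Cldn7, and occludin, encoded by Ocln, seal the tight junction, and Muc1 is a mucin of the apical membrane. Loss of this set together with gain of vimentin is the usual description of an epithelial to mesenchymal shift in carcinoma cells, and Snail and Zeb proteins are its best known repressors, which bind the E-box letters CACCTG or CAGGTG.

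Krt7, Krt8 and Krt18 lie in the type II keratin cluster on chromosome 15, to which Krt18, a type I gene, is the known exception. In GRCm39 coordinates they span chr15:101308924-101328194 (Krt7, plus strand), chr15:101905133-101912917 (Krt8, minus strand) and chr15:101936615-101940462 (Krt18, plus strand), with 23697 bases between Krt8 and Krt18. Krt19 lies in the type I cluster at chr11:100031636-100039491 (minus strand). The adhesion and junction genes are at chr17:87943407-87958557 (Epcam, plus), chr8:107329983-107396878 (Cdh1, plus), chr5:134973973-134975788 (Cldn4, minus), chr11:69855605-69858711 (Cldn7, plus) and chr13:100633015-100689226 (Ocln, minus), and Muc1 is at chr3:89136364-89140688 (plus). Counts were taken over all annotated exons of each gene, UTRs included. Krt7, Krt8, Krt19 and Ocln share exon bases with a gene on the opposite strand, and the counting used strand. Reads with several alignments were counted. The pseudogene Krt8-ps, a near copy of Krt8, held at most 3.72% of the Krt8 count in any co-culture, cultured Panc02 or allograft library. Its share was not taken in libraries of NK cells alone, which had few Krt8 counts.

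RefSeq promoter windows (GRCm38.p6, a build other than that of the counts) were found for 8 of the 10 genes, all but Krt19 and Cdh1. At least 1 E-box of the letters CACCTG or CAGGTG, which are one another on the opposite strand, lay within 250 bases upstream of a start of each of the 8 genes, in 8 of their 10 windows. The same letters were in 17.2% of all 32851 windows of that length. The E-boxes of Krt7, Krt8, Cldn7 and Ocln lay past the first window base that falls in an annotated exon of the same gene. Those of Muc1, Cldn4, Krt18 and Epcam lay before any such base. A GC box (GGGCGG, or CCGCCC on the other strand) was present in 6 of the 8 genes and 32.7% of all windows, a TATA box (TATAAA or TTTATA) in 1 of 8 and 12.4%, and an AP-1 word (TGACTCA or TGAGTCA) in 1 of 8 and 4.46%; these words cannot overlap the E-box except at their edges. Such matches describe the letters and show no binding. The 3 windows printed stand for 3 patterns described later: Krt18 (chr15:102027966-102028179, plus strand, 214 bases) was abundant in Panc02 and lower in allografts, Epcam (chr17:87635729-87635978, plus strand, 250 bases) was higher in IL-2 monocultured NK cells than in cultured Panc02, and Muc1 (chr3:89228806-89229055, plus strand, 250 bases) had low levels, 0.684 to 3.29 CPM, in every library. Capitals mark the E-boxes.
Krt18: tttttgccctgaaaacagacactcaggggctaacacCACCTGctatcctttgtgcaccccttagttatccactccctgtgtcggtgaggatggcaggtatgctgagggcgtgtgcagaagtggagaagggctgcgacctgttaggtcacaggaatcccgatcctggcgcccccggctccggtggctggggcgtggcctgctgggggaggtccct
Epcam: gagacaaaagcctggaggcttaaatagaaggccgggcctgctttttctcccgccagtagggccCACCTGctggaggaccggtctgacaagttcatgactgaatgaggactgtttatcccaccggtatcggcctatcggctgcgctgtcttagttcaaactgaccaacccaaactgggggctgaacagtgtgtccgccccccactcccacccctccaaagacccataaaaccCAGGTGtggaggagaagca
Muc1: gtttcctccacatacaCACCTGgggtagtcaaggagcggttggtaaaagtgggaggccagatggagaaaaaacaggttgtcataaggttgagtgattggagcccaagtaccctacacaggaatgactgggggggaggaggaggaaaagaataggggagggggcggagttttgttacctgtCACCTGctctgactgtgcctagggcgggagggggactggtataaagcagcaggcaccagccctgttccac
The 5′ base of the E-box lay 214 bases upstream of the RefSeq start in Krt18, 187 and 19 bases upstream in Epcam, and 234 and 70 bases upstream in Muc1. The Krt18 sequence is printed only up to an annotated exon of the gene, so it ends short of the RefSeq start. Genes of all 3 patterns held the same word.

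Library totals ran from 13025549 to 46842646 counts. Levels are given as CPM (counts scaled to a library's total gene counts), and levels are compared between genes only per exon length, as RPKM (CPM divided by the exon length in kilobases). NK only libraries carried their defining markers (8 NK genes, summed level 8028 to 10084 CPM), whereas co-culture libraries, which the labels describe by their NK cells, held 217 to 419 CPM of these markers and a median of 91.5% to 95.0% of the cultured level over 61 genes restricted to Panc02. Co-culture libraries are therefore read here as mainly Panc02 RNA. Those 61 genes, other than the genes described here, had at least 50 CPM in cultured Panc02 and at most 0.2 CPM in every fresh NK library. In allografts their median was 39.2% to 57.9% of the cultured level, beside host markers of muscle (7 genes, 660 to 29566 CPM), fibroblasts (7643 to 24107 CPM), endothelium (155 to 444 CPM) and leukocytes (948 to 1708 CPM). In such bulk tissue, fewer Panc02 cells and less RNA per cell cannot be told apart.

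Cultured Panc02 had the keratins and E-cadherin at high levels, occludin at a lower level, and little or none of the other 4 genes. Per length, Krt8 stood at 734 ± 0.23 RPKM (SD, n = 2) and Krt18 at 666 ± 0.03, followed by Krt19 at 224 ± 10.6, Krt7 at 164 ± 8.67, Cdh1 at 34.1 ± 0.32 and Ocln at 2.62 ± 0.06 RPKM. Cldn7 (0.553 ± 0.13), Muc1 (0.460 ± 0.12) and Epcam (0.448 ± 0.08 RPKM) followed and did not differ from each other beyond their spread. Cldn4 had no count in either library, which allows up to 0.0337 CPM (3 counts over both). The name of an epithelial set thus fitted Panc02 in its keratins and Cdh1, and not in Epcam, Cldn4, Cldn7 or Muc1. Epcam, the usual surface marker of carcinoma cells, had 1.11 and 0.855 CPM, while Vim, the mesenchymal filament gene, had 3981 and 4052 CPM. The limits given for a count of 0 cover counting error only and take counts as independent.

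**Figure D1:**
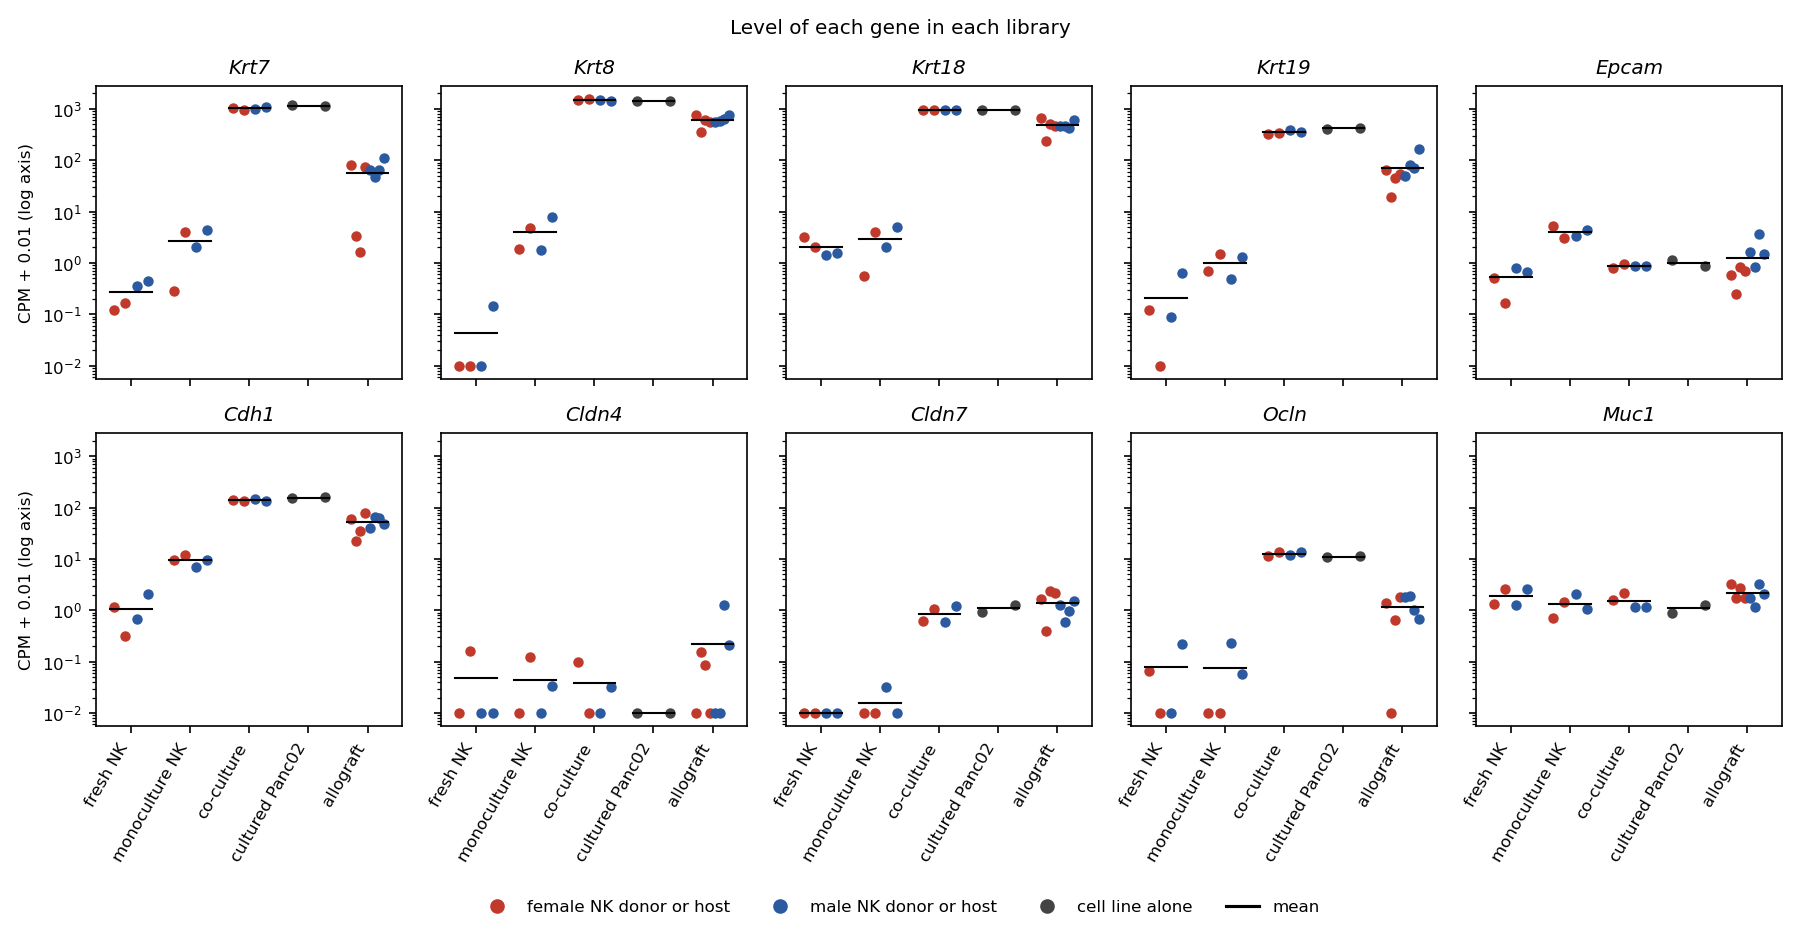
Level of each gene in all 22 libraries, as CPM plus 0.01 on a log axis, with 1 point per library, black lines at the mean, and colours for the sex of the NK donor or the host. Krt8, Krt18, Krt19 and Cdh1 are higher in every library with Panc02 than in any NK only library, Krt7 is so in all but 2 female-host allografts (3.31 and 1.61 CPM), Cldn4 is near 0 everywhere but 1 male-host allograft, and Epcam and Cdh1 are higher in monocultured than in fresh NK cells.

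The keratins fell in the allografts by very unequal amounts. Krt8 had 1437 and 1438 CPM in culture, and 757, 359, 601 and 560 CPM in female-host allografts 1 to 4 and 543, 589, 625 and 756 CPM in male-host allografts 5 to 8. Every allograft was below both cultured libraries, and allograft 2 was lowest. The fitted change was -1.20 ± 0.21 (log2 ± SE; adjusted p = 0.000605, edgeR's quasi-likelihood test with Benjamini-Hochberg adjustment over all genes, as throughout). Krt18, its partner, had 956 CPM in both cultured libraries and 659, 236, 505, 466, 460, 470, 428 and 615 CPM in allografts 1 to 8. Again no allograft reached the cultured level, and the change was -0.93 ± 0.28 (adjusted p = 0.0141). That call was lost without cultured library 1 (adjusted p = 0.0756) or 2 (adjusted p = 0.0794), which leaves 1 cultured library whose spread is taken from the allografts. Relative to the cultured mean, Krt8 stood at 25.0% to 52.6% and Krt18 at 24.7% to 68.9%. These ranges overlap that of the medians of the 61 Panc02-restricted genes, which were not chosen against host tissue. Those genes spread widely within an allograft, with interquartile ranges such as 15.2% to 104% (allograft 2) and 28.5% to 88.1% (allograft 8).

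The duct keratins were lower still. Krt19 had 402 and 429 CPM in culture and 64.7, 19.0, 44.7, 54.4, 48.9, 82.2, 71.9 and 167 CPM in allografts 1 to 8. Allograft 8 was the highest and allograft 2 the lowest, all 8 were below culture, and the change was -2.60 ± 0.44 (adjusted p = 0.000751). Krt7 had 1198 and 1111 CPM in culture and 81.6, 3.31, 1.61, 74.8, 63.5, 46.1, 65.3 and 110 CPM in allografts 1 to 8. Female-host allografts 2 and 3 stood far below the other 6, at 0.139% to 0.287% of the cultured mean against 3.99% to 9.56%. The fitted change of Krt7 was -4.35 ± 1.02 (adjusted p = 0.00585), and it was -3.89 without these 2 allografts, a setting chosen after seeing the data. Allografts 2 and 3 also had the highest summed endothelial markers of the 8 (444 and 394 CPM, against 155 to 305 CPM) and the lowest level of Ehf, an epithelial ETS factor (7.28 and 11.1 CPM, against 48.8 to 408 CPM). Their summed acinar markers were the highest as well (19.0 and 18.4 CPM, against 4.80 to 7.88 CPM). Nearly all of this was Cela1 (18.7 and 18.4 CPM), and the same list had 12.4 to 20.2 CPM in fresh NK cells. Their NK markers were the lowest (13.8 and 12.2 CPM, against 17.4 to 50.7 CPM), beside 17.7 to 19.8 CPM in cultured Panc02. In cultured library 1 all of this was Eomes, with no count of the other 7 NK genes. This sum is therefore not a measure of NK RNA alone. The part of these markers and of Ehf in the low Krt7 was not tested. The same 2 allografts were also the lowest of the 8 in Krt19, Cdh1 and Ocln, by smaller margins, whereas in Krt8 and Krt18 allograft 2 was lowest and allograft 3 was inside the range of the other 6.

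The mixture of keratins differed more than the balance of the 2 types. Summed per length, type II keratins (Krt7 and Krt8) over type I (Krt18 and Krt19) gave a ratio of 1.02 and 0.994 in culture and 0.776 to 1.06 in the allografts, 7 of them below both cultured libraries. The share of Krt7 in type II was 18.8% and 17.7% in culture and 0.0742% to 3.90% in the allografts. The share of Krt19 in type I was 24.5% and 25.8% in culture and 5.87% to 17.4% in the allografts. Both shares were lower in all 8 allografts than in either cultured library. The level of 1 pair member against the other, Krt8 over Krt18, was 1.10 in both cultured libraries and 0.842 to 1.12 in the allografts.

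**Figure D2:**
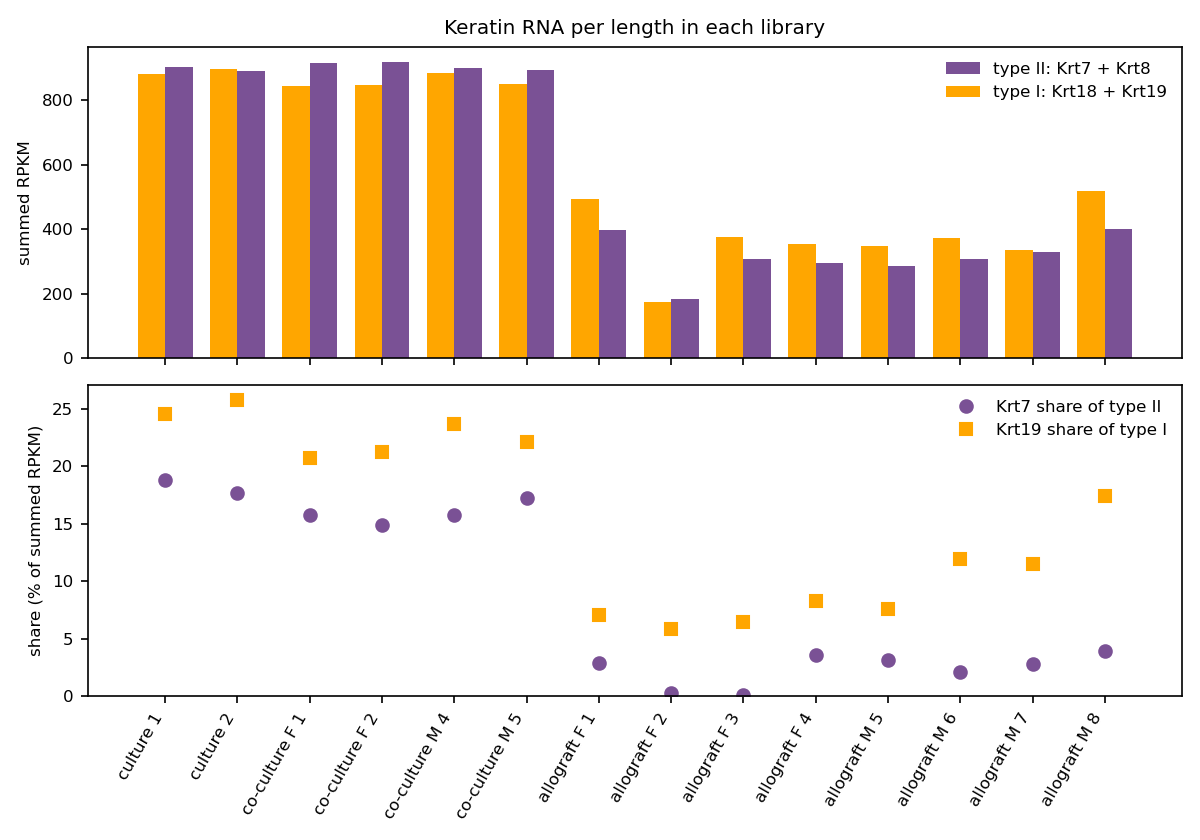
Keratin RNA per length in cultured Panc02, co-culture and allografts. Upper bars give the summed RPKM of type I (Krt18 and Krt19) and type II (Krt7 and Krt8) for each library, and lower points give the share of Krt7 in type II and of Krt19 in type I: the bars of each library stay close in height, while the Krt7 share drops from 17.7% or more in culture to 3.90% or less in allografts.

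Of the adhesion and junction genes, those that Panc02 expressed in culture fell and those that it barely expressed did not. Cdh1 had 155 and 157 CPM in culture and 60.6, 22.2, 34.5, 77.0, 40.4, 66.1, 63.4 and 48.3 CPM in allografts 1 to 8, all below culture, with a change of -1.53 ± 0.36 (adjusted p = 0.00519). Ocln had 10.9 and 11.2 CPM in culture, no count in allograft 2, and 0.650 to 1.85 CPM in the other 7, with a change of -3.20 ± 0.81 (adjusted p = 0.00684). Epcam ran from 0.244 to 3.58 CPM in the allografts and overlapped culture (log2 change 0.15 ± 0.55, adjusted p = 0.826). Cldn7 ran from 0.390 to 2.37 CPM against 0.897 and 1.26 CPM (0.36 ± 0.58, adjusted p = 0.609). Muc1 ran from 1.14 to 3.29 CPM against 0.875 and 1.28 CPM, with 7 of 8 allografts above both (1.08 ± 0.45, adjusted p = 0.0544). It passed the threshold without allograft 2 (adjusted p = 0.0494) or allograft 6 (adjusted p = 0.0365), in female hosts alone (adjusted p = 0.0474) and in DESeq2 (adjusted p = 0.0301).

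In this comparison 9 of the 10 genes passed the filter on low counts, and 6 of these 9 were lower and 0 higher in the allografts. Over all 23264 genes tested, 23.3% were lower and 38.8% higher, and the median change was -1.20 for the 9 genes against 0.42 for all genes. Cultured and allograft libraries came in separate count tables, from different amounts of RNA, so that these differences of preparation and growth in a host cannot be told apart. Per length, the order in the allografts was Krt18 (334 ± 88.8 RPKM, SD, n = 8) and Krt8 (306 ± 64.7), which overlapped, then Krt19 (37.3 ± 23.7), then Cdh1 (11.3 ± 4.02) and Krt7 (7.92 ± 5.35), which overlapped. Muc1 (0.936 ± 0.34), Cldn7 (0.694 ± 0.36), Epcam (0.559 ± 0.48), Ocln (0.273 ± 0.16) and Cldn4 (0.115 ± 0.24 RPKM) came last, with overlapping ranges between neighbours.

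**Figure D3:**
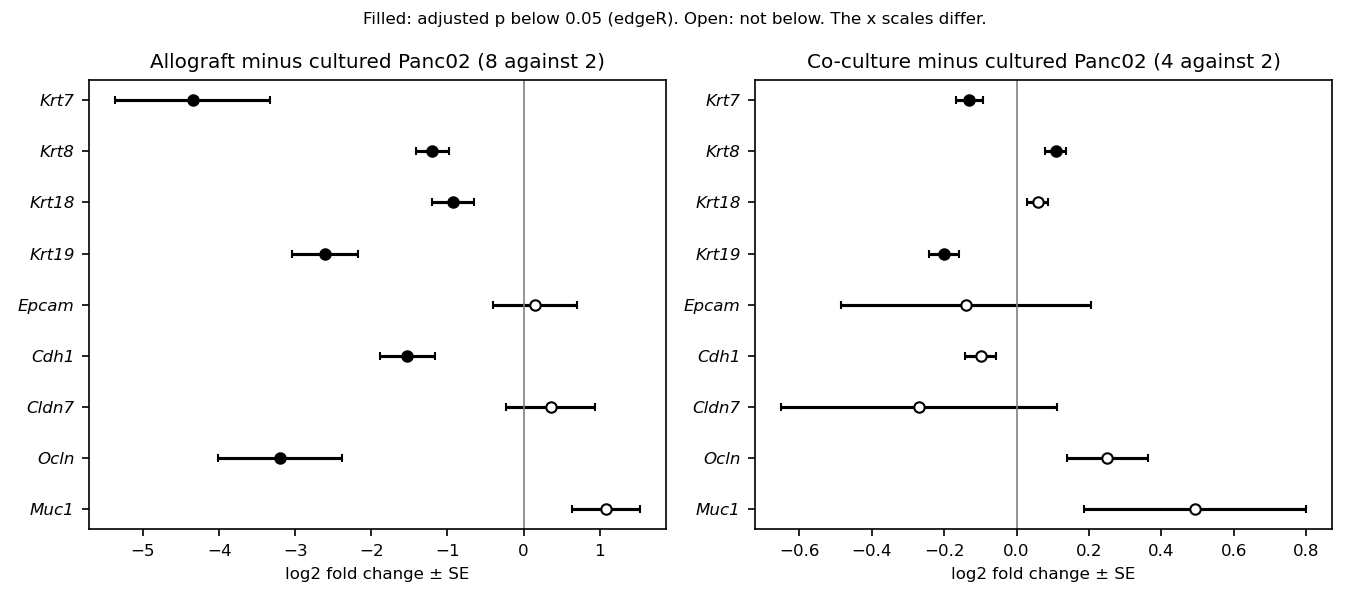
Fitted log2 fold change with its standard error for each gene tested, allografts minus cultured Panc02 on the left and co-culture minus cultured Panc02 on the right, on different x scales. Filled points passed an adjusted p of 0.05: 6 fall to the left of 0 in allografts, whereas the co-culture changes of Krt7, Krt8 and Krt19 lie between -0.20 and 0.11.

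Allograft 7, from a male host, stood apart in genes of stratified epithelium. It had the highest Epcam (3.58 CPM) and held 52 of the 68 Cldn4 counts of the 8 allografts, a level of 1.25 CPM against at most 0.205 CPM in the others. Its summed level over 8 matched markers of stratified epithelium was 292 CPM, against 16.0 to 64.9 CPM in the other 7. Among them, the basal layer keratins Krt5 and Krt14 had 50.1 and 106 CPM (others at most 6.52 and 11.2 CPM), and the suprabasal keratin Krt1 had 25.5 CPM (others at most 1.83 CPM). Trp63, on the same list, did not single it out, with 38.1 CPM against 58.0 CPM in allograft 1. The Krt8, Krt18, Krt19, Krt7 and Cdh1 levels of allograft 7 were inside the range of the other allografts. Its summed erythroid markers were also the highest, at 256 CPM against 23.5 to 75.7 CPM. The part of these other tissues in its Epcam and Cldn4 levels was not tested.

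Sex of the host gave no call among these genes. Of 9 tested, 0 passed, beside 0.0146% of all genes (3 of 20560 by edgeR, with 3087 at an unadjusted p under 0.05, and 291 higher and 387 lower by DESeq2). Epcam came nearest: female hosts had 0.579, 0.244, 0.842 and 0.682 CPM and male hosts 1.62, 0.808, 3.58 and 1.46 CPM. The groups overlapped only through allografts 3 and 6, and the difference, female minus male, was -1.63 ± 0.53 (log2, unadjusted p = 0.0125, adjusted p = 0.237). Krt19 differed by -0.98 ± 0.47 (adjusted p = 0.373). DESeq2 also called 0 of the 9.

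How the genes varied among the 8 allografts was described by the Pearson r of log2 CPM, with no p, since all 8 share the mixture of host and tumor RNA. Krt8 and Krt18 followed each other most closely of the 9 genes (r = 0.968), and Krt8 with Krt19 had r = 0.856. Cdh1 with Ocln had r = 0.832. Krt7 had r = 0.758 with Cdh1, 0.699 with Krt19 and 0.584 with Krt8. Muc1 had r between -0.037 and 0.492 with the other genes. Of 18922 genes, those most like Krt7 were Nrn1 (r = 0.972) and Hap1 (r = 0.969), the one most like Krt19 was Mucl3 (r = 0.974), and the one most like Epcam was P3h2 (r = 0.936). For Ocln it was Marveld2 (r = 0.966), which encodes tricellulin, a tight junction protein of the occludin family. For Krt18 it was Mrpl32 (r = 0.978), with Krt8 next, and for Cdh1 it was Gm5066 (r = 0.967). These are among the highest of 18922 values over only 8 libraries, a choice that by itself favours a high r. Mean allograft levels of Marveld2 (1.71 CPM), Mucl3 (0.380 CPM) and Gm5066 (0.261 CPM) were low.

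Other epithelial genes, taken as named lists, moved in both directions in the allografts. Of 20 tight junction genes tested, 12 were lower and 4 higher. The lower ones included Pard6b, a polarity adaptor (15.3 ± 0.28 CPM in culture, SD, n = 2, and 0.379 ± 0.21 in allografts, n = 8; log2 change -5.25 ± 0.45, adjusted p = 3.45e-06), and Cgnl1, a cingulin-like linker (313 ± 5.04 and 40.7 ± 10.8 CPM; -2.89 ± 0.21, adjusted p = 1.2e-06). The higher ones included Cldn1, which had no count in culture and was at least 74.3-fold higher, and Jam3 (log2 change 8.11 ± 0.86). Of 12 genes of desmosomes and keratin linkers, 6 were lower and 0 higher, among them the plakophilin Pkp4 (-1.36 ± 0.13) and the keratin linker envoplakin, Evpl (-1.83 ± 0.44). Of 13 other keratins 1 was lower, Krt80 (-2.67 ± 0.24), 0 were higher and 12 were not called, although the fitted median of the 13 was 3.70 against 0.42 for all genes. Krt1, which had no count in culture, lay above that median both as fitted and as a bound (at least 102-fold for the allograft mean). That mean rests mainly on allograft 7 (25.5 CPM), with 1.83 CPM in allograft 5 and no count in allografts 1, 2, 4 and 6.

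Of 10 adherens junction genes, 3 were lower and 5 higher. The lower ones included Ctnnb1, encoding β-catenin (-1.15 ± 0.13), and Afdn, encoding afadin (-1.38 ± 0.17), and the higher ones Nectin3 (7.96 ± 0.87) and the P-cadherin gene Cdh3, which had no count in culture and was at least 83.0-fold higher. Of 9 tested membrane mucins and surface genes, 3 were lower, including the laminin receptor subunits Itga6 (-2.57 ± 0.17) and Itgb4 (-1.57 ± 0.20), and 4 were higher, including Ceacam1 (6.97 ± 0.77) and the membrane protease St14 (3.55 ± 0.48). Of 9 epithelial regulators, 4 were lower, including the splicing factor Esrp2 (-3.63 ± 0.33) and Klf5 (-1.60 ± 0.16), and 3 were higher. Esrp1 and Grhl2 were too low to be tested. Of 9 mesenchymal genes and epithelial repressors, 8 were higher, including Zeb1 (1.17 ± 0.13), Snai1 (2.05 ± 0.23), Snai2 (no count in culture, at least 159-fold higher), Fn1 (3.05 ± 0.24) and Cdh2 (1.85 ± 0.52), and Vim was lower (-0.43 ± 0.13, adjusted p = 0.0176). Host fibroblast, endothelial and muscle markers were higher in all 7 of 7 genes of each list, beside these changes; their part in them was not tested.

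With NK cells for 24 h, the epithelial genes of Panc02 moved little. Krt8 was higher in co-culture, at 1511 and 1533 CPM with female and 1484 and 1452 CPM with male NK cells against 1437 and 1438 CPM alone, a change of 0.11 ± 0.03 (log2; adjusted p = 0.0114). Krt7 was lower, at 1016, 968, 998 and 1086 CPM against 1198 and 1111 CPM (-0.13 ± 0.04, adjusted p = 0.0176). Krt19 was lower, at 324 and 334 CPM with female and 389 and 350 CPM with male NK cells against 402 and 429 CPM (-0.20 ± 0.04, adjusted p = 0.00145). Relative to the cultured mean, Krt8 stood at 101% to 107%, Krt7 at 83.8% to 94.1% and Krt19 at 78.1% to 93.7%. The medians of the 61 Panc02-restricted genes were 91.5% to 95.0% in these libraries, and the part of NK RNA in the changes was not tested. The fitted changes of Krt7, Krt8 and Krt19 were each at most 1.15-fold. Leaving out 1 library ended each of these calls. Krt8 kept its size without cultured library 1 (0.11, adjusted p = 0.15) or 2 (0.11, adjusted p = 0.0984), where only 1 cultured library remained. Krt7 was -0.08 without cultured library 1 (adjusted p = 0.407) and -0.10 without male co-culture 4 (adjusted p = 0.0984), and Krt19 was -0.15 without cultured library 2 (adjusted p = 0.104).

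The remaining genes gave no call in co-culture. Krt18 had 953 to 969 CPM, Cdh1 134 to 149 CPM (-0.10 ± 0.04, adjusted p = 0.119, all 4 below culture) and Ocln 11.4 to 13.8 CPM (0.25 ± 0.11, adjusted p = 0.13, all 4 above culture, and adjusted p = 0.047 without female co-culture 1). Epcam (0.802 to 0.940 CPM), Cldn7 (0.582 to 1.18 CPM) and Muc1 (1.14 to 2.14 CPM) overlapped culture. Of 9 genes tested, 1 was higher and 2 lower, beside 12.2% and 6.12% of all 18172 genes. Among the lists, the tight junction linkers Cgnl1 (-0.41 ± 0.04) and Cgn (-0.78 ± 0.15) and the integrin Itgb4 (-0.29 ± 0.04) were lower, and Spint1, an inhibitor of membrane serine proteases (0.51 ± 0.08), the junction receptor F11r (0.19 ± 0.04) and the tricellular protein gene Lsr (0.20 ± 0.06) were higher. Vim (-0.02 ± 0.03), Zeb1 (-0.06 ± 0.07) and Snai1 (0.14 ± 0.09) did not pass.

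Sex of the NK donor gave 0 calls among 9 genes in co-culture, beside 1.14% of all genes. Krt19 was closest, lower with female than with male NK cells in both libraries of each, with a difference of -0.20 ± 0.05 (log2, unadjusted p = 0.000618, adjusted p = 0.0523). It passed in DESeq2 (adjusted p = 0.0348), without the filter on low counts (adjusted p = 0.00248), with halved counts (adjusted p = 0.0343) and without male co-culture 5 (adjusted p = 0.0245). NK markers were also unequal between these libraries, at 341 and 419 CPM with female and 245 and 217 CPM with male NK cells, and 4 of 8 were called higher with female cells; their part in the Krt19 difference was not tested.

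NK libraries without Panc02 held low but measurable levels of the epithelial genes, and these split into 2 kinds after culture. Cdh1 had 1.13, 0.307, 0.656 and 2.07 CPM in fresh NK cells (female 1 and 2, male 4 and 5) and 9.71, 11.8, 7.04 and 9.68 CPM in the IL-2 monocultures of the same numbers. The groups did not overlap, and Cdh1 rose by 3.23 ± 0.37 (log2, adjusted p = 3.56e-05). Epcam had 0.506, 0.154, 0.772 and 0.645 CPM fresh and 5.33, 3.04, 3.29 and 4.43 CPM in monoculture, again without overlap, a rise of 3.03 ± 0.35 (adjusted p = 2.91e-06). In all 4 monocultures Epcam was above both cultured Panc02 libraries, at 310% to 543% of their mean, and Cdh1 was at 4.52% to 7.55%.

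The keratins were at much smaller shares of their Panc02 level. Krt8 had no count in 3 fresh libraries and 5 counts in the fourth (0.134 CPM), and 1.85, 4.70, 1.75 and 7.69 CPM in monoculture (adjusted p = 0.00104). Krt7 went from 0.113, 0.154, 0.347 and 0.430 CPM to 0.274, 3.93, 2.08 and 4.45 CPM (3.68 ± 0.72, adjusted p = 0.00197), and the groups overlapped through female monoculture 1. Krt19 went from 0.113, 0, 0.0772 and 0.618 CPM to 0.684, 1.47, 0.476 and 1.31 CPM (2.64 ± 0.74, adjusted p = 0.00791), with overlap. Krt18 differed from its partner in fresh NK cells, at 3.18, 2.00, 1.39 and 1.53 CPM where Krt8 was at or near 0, and it had 0.547, 4.07, 2.06 and 4.92 CPM in monoculture (0.67 ± 0.52, adjusted p = 0.343; adjusted p = 0.017 without female monoculture 1). Krt7 lost its call without fresh female 1 (adjusted p = 0.0566).

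Transcripts restricted to Panc02 were present in the same monocultures. Over the 61 restricted genes the median level was 0% of cultured Panc02 in female monoculture 1, 0.314% in female 2, 0.144% in male 4 and 0.323% in male 5. It was 0% in all 4 fresh libraries, where a value near 0 was set by the choice of these genes (at most 0.2 CPM there). In the 3 monocultures with a median above 0, the 4 keratins stood at 0.797 to 1.66 times the level that this median gives, whereas Cdh1 stood at 19.2 to 31.4 times and Epcam at 985 to 2328 times that level. Without female 2 and male 5, the 2 monocultures with the highest medians, a setting chosen after seeing the data, Epcam (3.11, adjusted p = 6.45e-05) and Cdh1 (3.04, adjusted p = 0.00133) kept their calls, as did Krt8, and Krt7 (1.83, adjusted p = 0.0523) and Krt19 (1.87, adjusted p = 0.197) lost theirs. How Panc02 transcripts came to be in these libraries was not tested.

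**Figure D4:**
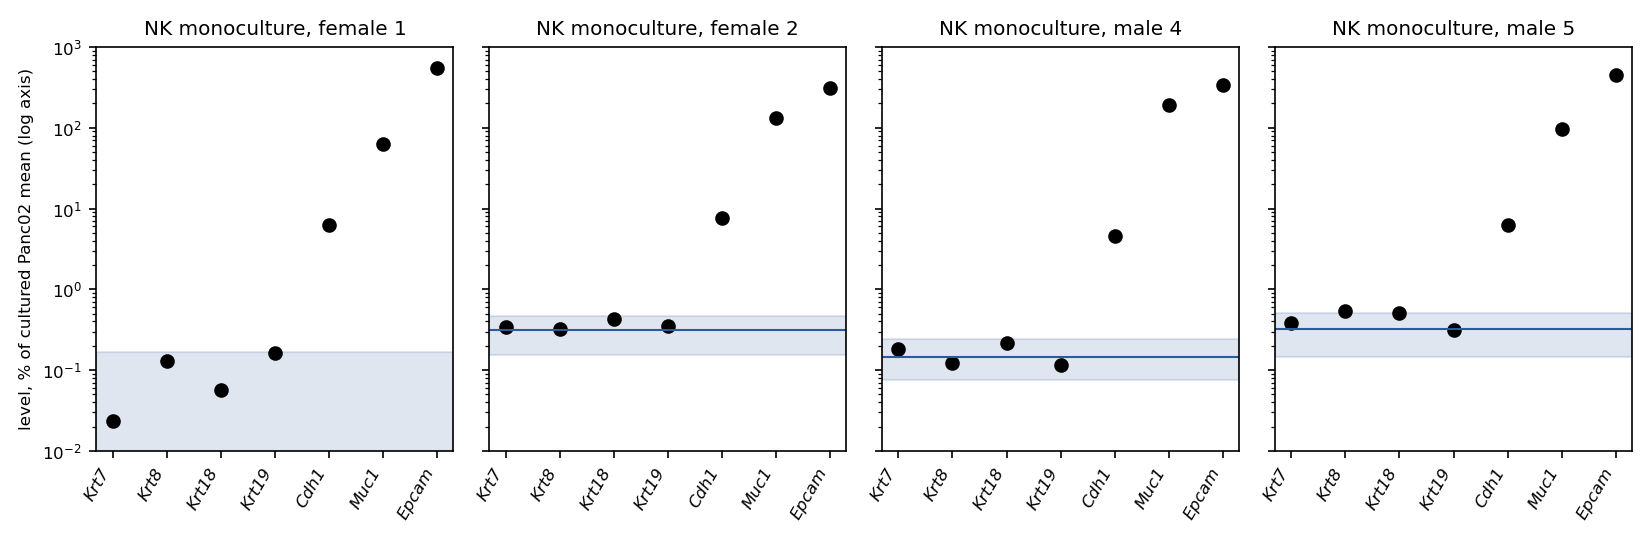
Level of 7 genes in each IL-2 monoculture of NK cells as a percentage of their mean in cultured Panc02, on a log axis, with the median (line) and the interquartile range (band) of 61 Panc02-restricted genes; the line is missing in female 1, where the median is 0. The keratins lie at or near the band, and Cdh1, Muc1 and Epcam lie far above it.

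Of 7 genes tested, 5 were higher in monoculture, beside 23.1% of all 19623 genes, and 3 were higher without the 2 monocultures named. Muc1 was at 1.27 to 2.58 CPM fresh and 0.684 to 2.08 CPM in monoculture (-0.43 ± 0.40, adjusted p = 0.413). Cldn7 had no count in the 4 fresh libraries, which allows up to 0.0269 CPM, and 1 count in the 4 monocultures. Cldn4 had 2 counts in fresh and 5 in monocultured NK cells, and Ocln 10 and 12. Dendritic cell markers fell in 7 of 7 tested genes (summed level 116 to 155 CPM fresh, 13.7 to 20.2 CPM in monoculture) and erythroid markers in 8 of 8 (660 to 901 and 71.9 to 135 CPM). Summed fibroblast markers were 111 to 186 CPM fresh and 242 to 381 CPM in monoculture. Yet 4 of 5 tested genes were lower and 1 higher, with a median log2 change of -5.02. The highest sum, in female monoculture 1, came from Col1a2 and Thy1 alone, and the other 5 genes had no count. The part of other cells in the Cdh1 and Epcam levels was not tested.

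Per length, the order in monoculture was Cdh1 (2.09 ± 0.42 RPKM, SD, n = 4), Krt8 (2.04 ± 1.44), Krt18 (2.02 ± 1.37) and Epcam (1.83 ± 0.48), which overlapped, followed by Muc1 (0.558 ± 0.26), Krt19 (0.531 ± 0.26) and Krt7 (0.381 ± 0.27), which also overlapped. In fresh cells Krt18 (1.41 ± 0.57 RPKM) and Muc1 (0.819 ± 0.31) led and overlapped, ahead of Epcam (0.237 ± 0.12) and Cdh1 (0.227 ± 0.17).

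Some junction genes of the lists also rose in monocultured NK cells, and others fell, where 22.0% of all genes tested were lower. Of 16 tight junction genes tested, 8 were higher, including Cldn12 (2.03 ± 0.15) and the polarity gene Crb3 (6.05 ± 0.90), and 3 were lower, including Tjp3 (-3.12 ± 0.43). Of 9 genes of desmosomes and keratin linkers 4 were higher, including the plakophilins Pkp3 (0.90 ± 0.08) and Pkp2 (0.96 ± 0.22), and Plec was lower (-0.36 ± 0.07). Of 10 mucins and surface genes 5 were lower, including Muc13 (70.5 ± 8.67 CPM fresh and 1.51 ± 0.97 CPM in monoculture, SD, n = 4; -5.70 ± 0.17), and St14 was higher (1.71 ± 0.19). Of 9 adherens junction genes 5 were lower, including Nectin2 (-6.81 ± 0.45), and 2 were higher.

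Sex of the NK donor gave 0 calls among 7 genes in fresh cells, beside 8.59% of all genes, 0 in monoculture, beside 0.0764%, and 0 for the difference between the sexes in the response to culture, beside 1.65%. The smallest adjusted p of these was 0.283, for Krt19 in fresh cells (-2.21 ± 1.18, female minus male). At an unadjusted p under 0.05 the count was 0 of the 7 in each of the 3 tests, and DESeq2 called 0.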

How the data were processed

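PolyA RNA of 22 libraries was sequenced with a strand-specific kit, per the labels' protocols. The authors trimmed reads with cutadapt 4.4, aligned them with HISAT2 2.2.1 and counted them with featureCounts 2.0.6 (the tools per the submitters' processing notes) over exons of the Ensembl 113 annotation of GRCm39, per the file headers, with stranded counting and with multi-mapping reads included. The deposited values are raw counts per gene. Low counts were even in 66.4% to 78.6% of cases, against 50% by chance, so mates of a pair seem to have been counted singly; counts are then not independent molecules. NK, co-culture and cultured Panc02 libraries share one table, although the labels name the other for Panc02, and allografts have their own.

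CPM is per total gene counts. Differences were tested on the counts with edgeR 4.0.16 (R 4.3.3; TMM, filterByExpr, robust quasi-likelihood F-test), with a Benjamini-Hochberg threshold of 0.05 over all genes tested. The method was tested on simulated data. Fits held the groups compared: 10 libraries for allografts against culture, 8 for host sex, 6 for co-culture, 8 for NK cells alone. Alternatives were median-ratio scaling, DESeq2 1.42.0, no filter, halved counts, other sets of libraries, each library left out, and a replicate block.

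The genes and lists were chosen with earlier results of these data known. All 10 genes were named; of each list, the called genes of smallest p in each direction (up to 2), with at least 1 CPM in the higher group; Vim, Zeb1, Cdh2, Snai1, Esrp1 and Grhl2; and, for likeness over allografts, the 3 genes of highest r, of which the text gives some. Loricrin and Muc4 were not matched by symbol. Protein sequences were not used here.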

Additional observations from a re-analysis of the deposited data

Results flagged for a closer look

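Cldn4 in male-host allograft 7 had 1.25 CPM (52 counts), against 0, 0 and 0.205 CPM in the other 3 male-host allografts. It was marked because its distance to the nearest of the others exceeded Dixon's 95% limit for a group of 4. The 10 genes were examined in each host sex, 20 groups in all, and chance marks about 1 in 20. The same library had the highest Krt5, Krt14 and Krt1 of the allografts, as given in the report; their part in the Cldn4 level was not tested.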

How the results depend on the processing

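Of 841 values of single genes under the alternatives, 821 stayed on their side of the threshold and, where called, kept their direction, 10 lost a call, 10 gained one and 0 changed sign as calls. For allografts against culture, the 6 lower genes became 5 to 6 when 1 library was left out, and the 0 higher genes became 1 (Muc1) in DESeq2, 1 in female hosts alone and 0 to 1 with 1 library left out. For co-culture against culture, 1 higher gene became 0 to 2 and 2 lower genes became 1 to 2 with 1 library left out. For donor sex in co-culture, the 0 lower genes became 1 (Krt19) in DESeq2, 1 without the filter, 1 with halved counts and 0 to 1 with 1 library left out. For monoculture against fresh NK cells, 5 higher genes became 4 to 6 with 1 library left out and 3 without female 2 and male 5. With the replicate number as a block 5 were higher there, and 0 genes were called for the difference between sexes. The numbers were not taken as pairs. Deviations of log2 CPM from the group mean correlated between same-numbered fresh and monoculture libraries by 0.016 (female) and 0.095 (male). With 2 libraries per group these deviations mirror each other and give 1 value per sex, so they cannot settle the pairing. Causes of these differences were not tested.

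Over all genes, counts that moved by more than 1.5 times were, for host sex, 291 higher and 387 lower in DESeq2 and 3 and 11 without the filter, against 0 and 3; for co-culture, 1170 to 1442 higher and 357 to 492 lower without a cultured library, against 2212 and 1113; for donor sex in co-culture, 348 higher and 74 lower without the filter, 64 and 103 higher without male 5 or 4, 12 to 53 lower with 1 library left out, and 275 and 5 with 12 libraries, against 179 and 28; for sex in fresh cells, 1467 lower in DESeq2, 143 to 350 higher and 315 to 394 lower without fresh female 1, male 4 or male 5, against 790 and 896; for sex in monoculture, 15 and 23 in DESeq2, 40 and 69 without the filter, 10 to 12 higher and 15 to 19 lower in other sets, against 6 and 9; and for the difference between sexes in the culture response, 209 higher with median-ratio scaling, 544 and 410 in DESeq2, 319 and 553 without the filter, 146 higher with halved counts, 175 higher with the replicate block, 36 to 207 higher and 39 to 405 lower with 1 library left out, against 94 and 229. Median-ratio scaling moved the median of all genes by at most 0.0576 (log2). Cldn4 had too few counts in every comparison for a test, and levels near 1 CPM (Epcam, Cldn7 and Muc1 in Panc02) rest on fewer than 60 counts a library.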

Other observations

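Ehf and Trp63 were among the epithelial regulators that were higher in allografts, where 6 of the 10 genes described were lower. Ehf, an ETS factor of epithelial cells, had 0.0640 and 0.190 CPM in cultured Panc02 and 98.4, 7.28, 11.1, 48.8, 129, 408, 118 and 193 CPM in allografts 1 to 8 (log2 change 9.59 ± 1.79, adjusted p = 0.00176, edgeR). Trp63, the p63 gene of basal epithelial cells, had 1.11 and 1.85 CPM in culture and 58.0, 18.7, 9.10, 17.8, 28.1, 28.9, 38.1 and 28.3 CPM in the allografts (4.32 ± 0.76, adjusted p = 0.000956). Allograft 6, highest in Ehf, had 0.143 CPM of Krt5 and 0.713 CPM of Krt14, and allograft 1, highest in Trp63, had 0 and 0.232 CPM.

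Cldn3, a claudin outside the 10 genes and named after its values were seen, had 39.9 and 40.0 CPM in cultured Panc02 and 0 to 1.69 CPM in the allografts. Marveld2, the tricellulin gene that Ocln resembled over the allografts, was higher in NK cells than in Panc02: 4.35 to 13.5 CPM in fresh and 14.5 to 30.1 CPM in monocultured NK cells, against 6.28 and 6.67 CPM in cultured Panc02 and 0.292 to 2.33 CPM in allografts, so that 3 of the 4 fresh libraries were above both cultured libraries.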
